A study of Mus musculus with 7 samples.

Results

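The 10 immediate early genes Nr4a1, Fos, Fosb, Jun, Junb, Egr1, Egr2, Atf3, Ier2 and Dusp1 were taken by symbol from the 19938 genes measured in the retinal pigment epithelium (RPE) of wild-type and Mfrp rd6 mice. Each of the 10 was measured by 1 probe set annotated to that symbol alone, and all 10 were tested. The RPE is the pigmented layer under the photoreceptors, and Mfrp encodes a membrane protein of that layer whose recessive rd6 allele leads to retinal degeneration. All mice had the C57Bl/6J background, 4 samples being wild type and 3 Mfrp rd6, and each sample was hybridised to 1 whole-genome array. The age field of the labels gives 8 weeks for every wild-type sample and 12 weeks for every Mfrp rd6 sample, and by this field genotype and age cannot be told apart. The growth protocol differs from it, with 12 weeks for Mfrp rd6 replicate 1 alone and 8 weeks for the others. The eyes were dissected right after the mice were killed, and the RPE was shaken loose from the opened eyecup and pelleted. Nothing in the labels says that replicates came from separate animals, so a p-value here rests on the variation among these 7 samples, part or all of which may be technical. In such bulk pellets, fewer cells of a type and less RNA per cell cannot be told apart.

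Immediate early genes are transcribed within minutes of a stimulus, from factors already present in the cell, without new protein synthesis. MAP kinases act on the serum response factor and its ETS partners, and cAMP and calcium signals act on CREB at the cAMP response element (CRE). The products are mostly transcription factors (the AP-1 proteins of the Fos, Jun and ATF families, the EGR zinc fingers and the NR4A nuclear receptors), joined by inhibitors such as the MAP kinase phosphatase Dusp1 that end the signal. Their transcripts are short-lived, and in dissected tissue they are known to respond to handling as well as to the state of the tissue in life.

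The promoters show what these genes share outside the array values. RefSeq promoter windows of GRCm38.p6, each from 250 bases before to 50 bases after a transcription start, were matched for 8 of the 10 members. Searched on both strands, the CRE core TGACG lay in a window of 7 of these 8 genes, all but Jun, as in 20.8% of all 32851 windows and in at least 1 window of 23.0% of 27025 genes. Egr2 has 5 windows, of which 3 hold the core. Jun has in its place the Jun-type site TGACATCA (in 3.62% of windows), a motif added after its sequence had been read. Below are the 150 bases before the start for the member that passed the test (Nr4a1), for 3 of those with the widest spread between arrays (Fos, Atf3, Dusp1) and for 2 that differed little (Jun, Egr2), 5′ to 3′ on the strand of the gene. Capitals mark the CRE core, the variant TGCGTCA that contains it on the other strand, the full palindrome TGACGTCA, the Jun-type site and the CArG box, the binding sequence of serum response factor.
Nr4a1, chr15:101266696-101266845, plus strand: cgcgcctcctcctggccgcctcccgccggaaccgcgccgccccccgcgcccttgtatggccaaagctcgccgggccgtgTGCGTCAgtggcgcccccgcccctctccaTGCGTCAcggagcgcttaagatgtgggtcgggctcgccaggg
Fos, chr12:85473740-85473889, plus strand: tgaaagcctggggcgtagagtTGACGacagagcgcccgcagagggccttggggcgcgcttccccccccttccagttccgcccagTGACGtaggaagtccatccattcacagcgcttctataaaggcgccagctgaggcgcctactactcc
Atf3, chr1:191183334-191183483, minus strand: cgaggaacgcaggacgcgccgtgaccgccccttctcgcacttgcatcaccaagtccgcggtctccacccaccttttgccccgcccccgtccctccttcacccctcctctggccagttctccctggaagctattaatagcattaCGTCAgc
Dusp1, chr17:26508473-26508622, minus strand: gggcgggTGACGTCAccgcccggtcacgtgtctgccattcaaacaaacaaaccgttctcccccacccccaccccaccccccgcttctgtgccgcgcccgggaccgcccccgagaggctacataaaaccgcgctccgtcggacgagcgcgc
Jun, chr4:95052223-95052372, minus strand: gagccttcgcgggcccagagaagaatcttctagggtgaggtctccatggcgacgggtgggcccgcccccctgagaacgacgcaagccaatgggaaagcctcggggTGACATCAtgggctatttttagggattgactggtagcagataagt
Egr2, chr10:67537719-67537868, plus strand: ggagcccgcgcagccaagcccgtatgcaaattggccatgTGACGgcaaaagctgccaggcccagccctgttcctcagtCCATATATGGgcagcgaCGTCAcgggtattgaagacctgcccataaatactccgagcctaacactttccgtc
Nr4a1 held 4 copies of TGCGTCA in its window, beginning 235, 215, 71 and 42 bases before the start. This variant occurred in 2 of the 8 members, Nr4a1 and Fosb (60 bases before the start, on the other strand), and in 2.12% of all windows. In Fos the core began 129 and 66 bases before the start. In Dusp1 the palindrome TGACGTCA began 143 bases before it and a further core 191 bases before it. Atf3 had the core 7 bases before the start, Fosb 60 bases and Junb 106 bases. The CArG box was found in Egr2 alone of the 8 members and in 1.63% of all windows, and the EGR site GCGNGGGCG in Fosb and Nr4a1 and in 5.55% of windows. The AP-1 site TGANTCA (7.81% of windows) and the NR4A monomer site AAAGGTCA (1.51%) were found in 0 of the 8. These are matches of letters within a short window and not measured binding.

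In the mutant RPE samples, Nr4a1 rose and the other 9 immediate early genes did not pass the test. Of the 10 members, 1 rose and 0 fell at a limma adjusted p under 0.05, beside 2.15% of all genes tested (1.34% higher and 0.813% lower in Mfrp rd6). All 10 changes were above 0, from 0.04 for Jun to 0.82 for Dusp1 on the log2 scale, as were 43.5% of all genes. Their median change was 0.49, and that of all genes was -0.02. Without Mfrp rd6 replicate 1 the members' median was 0.27 and 8 of the 10 changes were above 0. At an unadjusted p under 0.05 limma gave 5 of the 10 (Nr4a1, Dusp1, Junb, Atf3 and Egr1), all higher in Mfrp rd6, beside 15.4% of all genes in either direction and 5.98% in that direction. The Mfrp rd6 arrays lay wholly above the wild-type arrays for 1 member, Nr4a1, as for 5.52% of all genes, and the groups overlapped for the other 9.

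**Figure D1:**
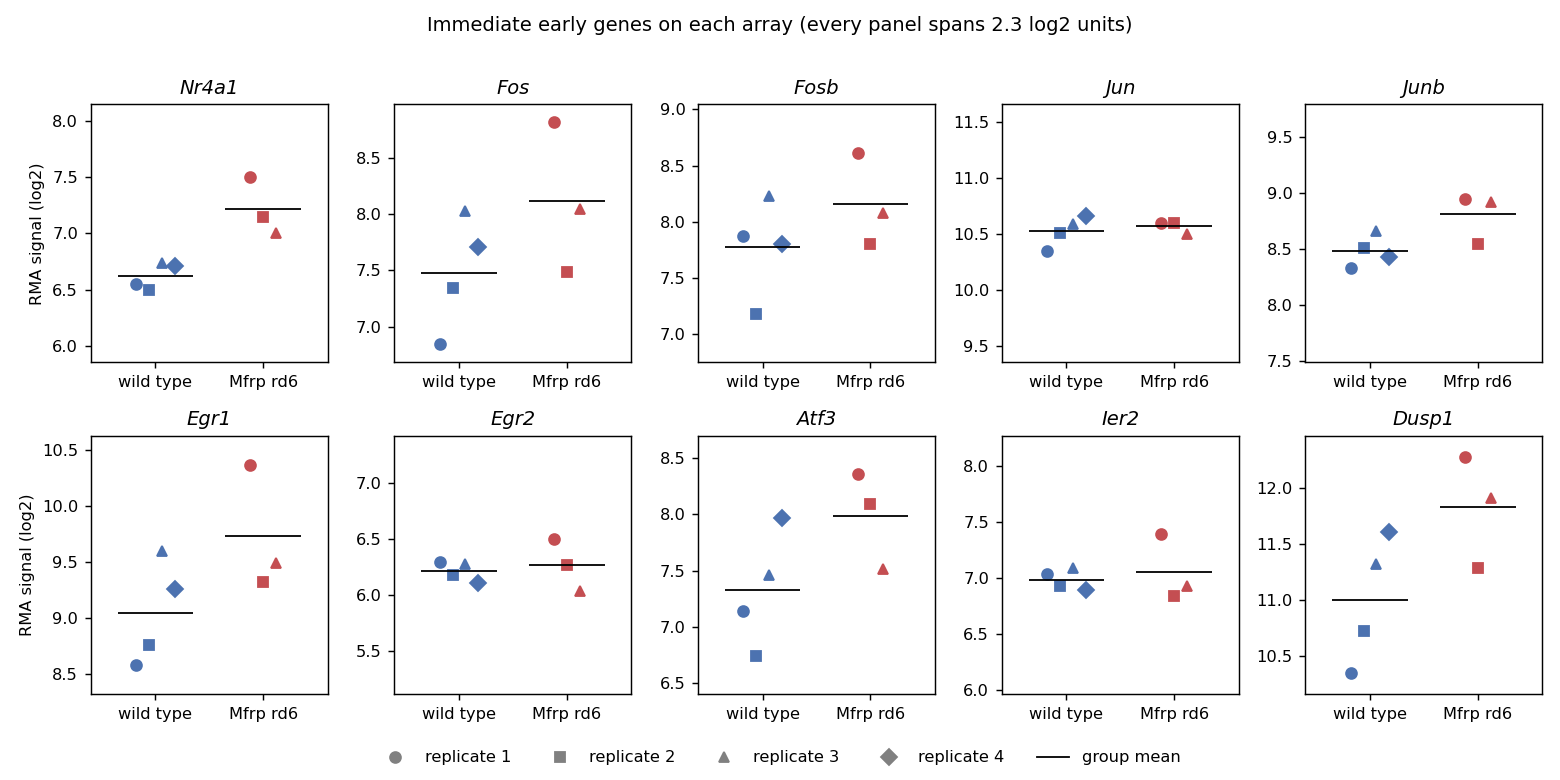
RMA signal (log2) of each immediate early gene on the 4 wild-type (blue) and 3 Mfrp rd6 (red) arrays, with the symbol marking the replicate number and a line at each group mean. Nr4a1 is the only gene whose groups do not overlap, and Mfrp rd6 replicate 1 is the highest of the 7 arrays for 9 of the 10 genes.

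Nr4a1, an orphan nuclear receptor that acts as an inducible transcription factor and is also known from activated macrophages, had log2 signals of 6.55, 6.50, 6.74 and 6.71 in wild-type replicates 1 to 4. In Mfrp rd6 replicates 1 to 3 it read 7.50, 7.15 and 7.0. The lowest mutant array was thus above the highest wild-type array, and the 4 wild-type values lay close together. The means of 6.62 ± 0.12 (SD, n = 4) and 7.22 ± 0.26 (SD, n = 3) differed by 0.59 (SE 0.12, 95% confidence interval 0.32 to 0.86), a 1.51-fold rise (limma, adjusted p = 0.038). Its probe set read close to the array medians of 6.52 to 6.58, a range in which RMA understates changes. The call on Nr4a1 was narrow. Its adjusted p in limma lay between 0.0602 and 0.0992 when any of the 4 wild-type arrays or Mfrp rd6 replicate 1 or 2 was left out, with changes of 0.45 to 0.63, and it passed only without Mfrp rd6 replicate 3 (0.70, adjusted p = 0.0269). It did not pass over all probe sets (adjusted p = 0.126) or with the replicate number as a block (adjusted p = 0.087). With the mean of the skeletal muscle, surface epithelium or microglia and macrophage markers as a covariate its change was 0.33, 0.11 or 0.52, none passing. Each of these marker means differed between the genotypes without overlap, so such fits separate it from genotype only poorly.

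The other NR4A receptors, Nr4a2 and Nr4a3, were not among the members and did not pass. Nr4a2 differed by 0.01 and Nr4a3 by 0.09. Among the receptor partners of the family, Rxrg, a retinoid X receptor with which NR4A proteins can pair, rose by 0.58, with a wild-type mean of 6.60 ± 0.16 (SD, n = 4) and a mutant mean of 7.18 ± 0.12 (SD, n = 3; limma, adjusted p = 0.018). Rxra differed by -0.09 and Rxrb by 0.02, neither passing, and the genes were not tested against each other. Every Mfrp rd6 array of Rxrg lay above every wild-type array. When single arrays were dropped, Rxrg passed in 3 of 7 limma fits (without wild-type replicate 2 or 3 or Mfrp rd6 replicate 3). Its change was 0.53 to 0.65 and its highest adjusted p 0.0795. It did not pass over all probe sets (adjusted p = 0.073) or with the replicate number as a block (adjusted p = 0.109). With the mean of the skeletal muscle, surface epithelium or microglia and macrophage markers as a covariate its change was 0.22, 0.14 or -0.08, with the same limit as for Nr4a1.

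The AP-1 proteins bind DNA as pairs joined by a leucine zipper. Fos, which needs a Jun partner to bind, read 6.84, 7.34, 8.03 and 7.71 in wild-type replicates 1 to 4, and 8.82, 7.49 and 8.05 in Mfrp rd6 replicates 1 to 3. Mfrp rd6 replicate 2 lay below wild-type replicates 3 and 4, so the groups overlapped. The Fos means of 7.48 ± 0.51 (SD, n = 4) and 8.12 ± 0.67 (SD, n = 3) differed by 0.64 (95% confidence interval -0.09 to 1.37), which did not pass (limma, adjusted p = 0.395). The range among the wild-type arrays, 1.19 or 2.28-fold, was larger than the difference between the genotypes.

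Fosb, the close relative of Fos, read 7.87, 7.18, 8.23 and 7.80 in wild type and 8.61, 7.80 and 8.08 in Mfrp rd6. Only Mfrp rd6 replicate 1 was above the wild-type range, and the difference of 0.39 (95% confidence interval -0.15 to 0.94) did not pass (limma, adjusted p = 0.501). The further Fos proteins Fosl1 and Fosl2 differed by 0.13 and 0.02.

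Jun, the main partner of Fos, was the steadiest member. It read 10.35, 10.51, 10.59 and 10.66 in wild type and 10.60, 10.60 and 10.50 in Mfrp rd6, with every mutant array inside the wild-type range. The difference of 0.04 had a 95% confidence interval of -0.15 to 0.23 (limma, adjusted p = 0.885). Junb, a Jun protein that can restrain Jun, read 8.33, 8.51, 8.66 and 8.43 in wild type and 8.95, 8.55 and 8.92 in Mfrp rd6. Replicates 1 and 3 of Mfrp rd6 lay above all wild-type arrays and replicate 2 did not, and the difference of 0.32 (SE 0.11, 95% confidence interval 0.07 to 0.58) did not pass after adjustment (limma, adjusted p = 0.211). Jund, the constitutive member of the family, differed by 0.22 (adjusted p = 0.168).

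Atf3, a stress-induced factor of the ATF family that pairs with Jun proteins and often represses, read 7.14, 6.74, 7.46 and 7.97 in wild type. In Mfrp rd6 it read 8.36, 8.09 and 7.51, the first 2 of these above every wild-type array and the last below wild-type replicate 4. The difference was 0.66 (SE 0.28, 95% confidence interval 0.04 to 1.28), with a wild-type range of 1.23, and did not pass (limma, adjusted p = 0.289). With single arrays left out the difference of Atf3 ran from 0.46 (without wild-type replicate 2) to 0.90 (without Mfrp rd6 replicate 3), and it passed in 0 of the 7 fits.

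The EGR proteins are zinc-finger factors that bind GC-rich sites. Egr1 read 8.58, 8.76, 9.60 and 9.26 in wild-type replicates 1 to 4 and 10.37, 9.32 and 9.49 in Mfrp rd6 replicates 1 to 3. Mfrp rd6 replicate 1 stood above all other arrays, and replicates 2 and 3 lay between wild-type replicates 4 and 3. The means of 9.05 ± 0.47 (SD, n = 4) and 9.73 ± 0.56 (SD, n = 3) differed by 0.68 (95% confidence interval 0.03 to 1.32; limma, adjusted p = 0.295). Without Mfrp rd6 replicate 1 the difference of Egr1 was 0.36.

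Egr2, which Schwann cells need to form myelin, read 6.30, 6.18, 6.28 and 6.11 in wild type and 6.50, 6.27 and 6.04 in Mfrp rd6. Both the highest and the lowest of its 7 values were mutant arrays. The difference of 0.05 (95% confidence interval -0.19 to 0.29) was within the spread (limma, adjusted p = 0.876), and its signal lay under the array medians. Egr3 differed by 0.13, and Egr4 had a 95% confidence interval of -0.31 to 0.30. The EGR corepressors Nab1 and Nab2 differed by -0.17 and -0.04.

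Dusp1, the nuclear phosphatase that switches off MAP kinases, had the largest difference of the members. It read 10.35, 10.73, 11.32 and 11.61 in wild-type replicates 1 to 4, and 12.28, 11.29 and 11.91 in Mfrp rd6 replicates 1 to 3. Mfrp rd6 replicate 2 lay under wild-type replicates 3 and 4, and the wild-type arrays alone spanned 1.26 log2 units, or 2.39-fold. The means of 11.00 ± 0.57 (SD, n = 4) and 11.83 ± 0.50 (SD, n = 3) differed by 0.82 (SE 0.31, 95% confidence interval 0.14 to 1.51), which did not pass (limma, adjusted p = 0.233). Ier2, a small nuclear protein, read 7.03, 6.93, 7.09 and 6.89 in wild type and 7.39, 6.84 and 6.93 in Mfrp rd6. Its difference of 0.07 (95% confidence interval -0.21 to 0.35; limma, adjusted p = 0.86) rested on Mfrp rd6 replicate 1, and without that array it was -0.10.

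**Figure D2:**
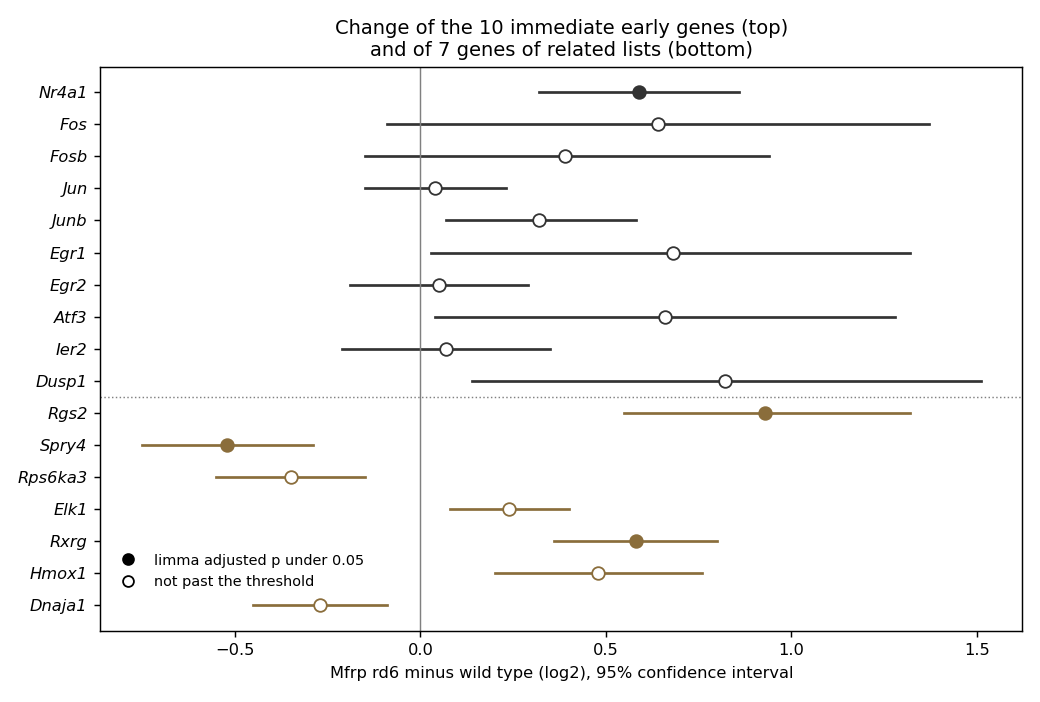
Change of the 10 members (top, black) and of 7 named genes of related lists (bottom, brown) as Mfrp rd6 minus wild type on the log2 scale, with the 95% confidence interval from limma and filled points for an adjusted p under 0.05. Nr4a1, Rgs2 and Rxrg are filled above 0 and Spry4 below 0, and the intervals of Fos, Fosb, Egr1, Atf3 and Dusp1 are the widest among the members.

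Most of the variation of Fos, Fosb, Egr1, Atf3 and Dusp1 lay between arrays of 1 genotype. The SD within groups was 0.58 for Fos, 0.54 for Dusp1, 0.51 for Egr1, 0.49 for Atf3 and 0.43 for Fosb, beside a median of 0.12 over all genes. Each of these was at or above the 99.5th percentile of the 19938 genes. The other 5 members were nearer to the bulk of genes, Ier2 at 0.20, Nr4a1 at 0.19, Junb at 0.18, Egr2 at 0.16 and Jun at 0.11, the last at the 44.0th percentile. Thus 5 of 10 members were above the 95th percentile, as by definition are 5.0% of genes. For 9 of the 10, all but Nr4a1, the range among the 4 wild-type arrays was larger than the difference between the genotypes, as it was for 84.9% of all genes.

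**Figure D3:**
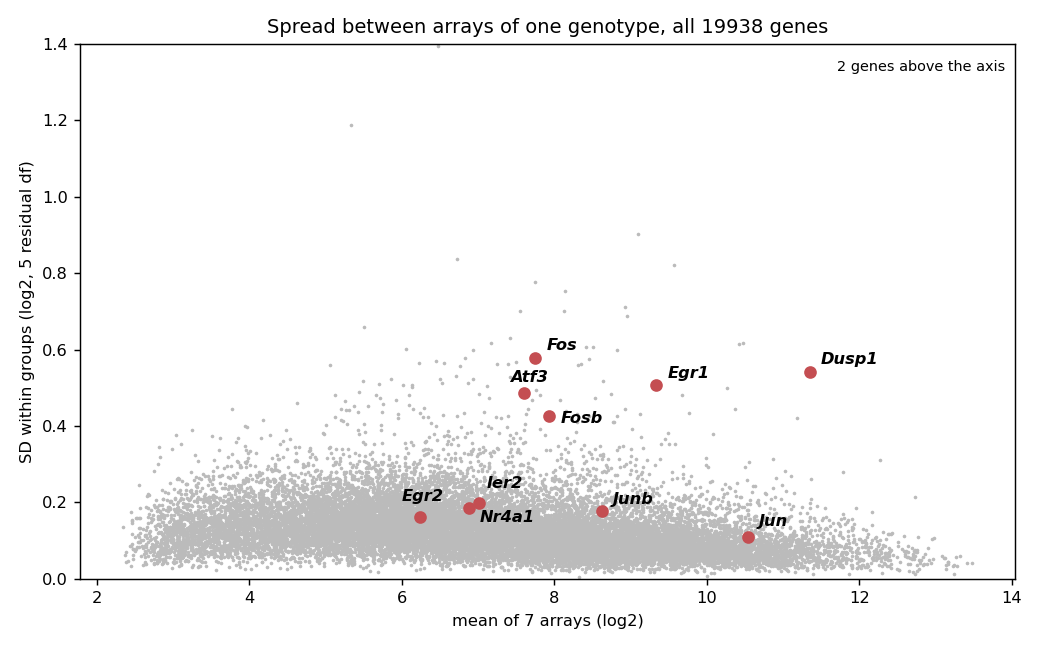
SD within groups (log2, 5 residual degrees of freedom) against the mean of the 7 arrays for all 19938 genes (grey), with the 10 members in red, and 2 genes above the axis. Fos, Dusp1, Egr1, Atf3 and Fosb lie far above the grey cloud at their level, while Jun lies inside it.

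The same arrays were high or low for many of the members. In Mfrp rd6, replicate 1 was the highest of the 3 arrays for all 10 members (tied with replicate 2 for Jun), and it was the highest of all 7 arrays for 9 of them, all but Jun. It exceeded every wild-type array for 9 members, as did 15.2% of all genes on that array. Replicate 3 exceeded every wild-type array for 4 members (Nr4a1, Fos, Junb and Dusp1; 23.2% of all genes) and replicate 2 for 2 (Nr4a1 and Atf3; 17.6%). Among the wild-type arrays, replicate 1 was the lowest for 5 members and replicate 2 for 3, and replicate 3 was the highest for 6. For 6 members (Nr4a1, Fos, Jun, Egr1, Atf3 and Dusp1) wild-type replicates 3 and 4 were both above replicates 1 and 2. That split was chosen after the values were seen, and the share of all genes with it was not determined. The mean over the 10 members was 7.93, 7.94, 8.40 and 8.32 in wild-type replicates 1 to 4 and 8.94, 8.34 and 8.44 in Mfrp rd6 replicates 1 to 3. Mfrp rd6 replicate 2 was therefore inside the wild-type range, and replicate 3 only just above it.

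Mfrp rd6 replicate 1 is the sample that both versions of the ages put at 12 weeks. Without it, which under the growth protocol leaves only samples of 8 weeks, 0 members passed (1 at an unadjusted p under 0.05 in limma), beside 1.06% of all genes (13.8% unadjusted). The differences were then 0.60 for Dusp1, 0.47 for Atf3, 0.45 for Nr4a1, 0.36 for Egr1, 0.29 for Fos, 0.25 for Junb, 0.17 for Fosb, 0.02 for Jun, -0.06 for Egr2 and -0.10 for Ier2. Nr4a1 was also the only member without overlap among these 6 arrays, as were 24.0% of all genes in either direction. Leaving out Mfrp rd6 replicate 2 instead gave 4 members without overlap (Nr4a1, Fos, Junb and Dusp1), beside 21.6% of genes, and differences of 1.09 for Dusp1 and 0.96 for Fos, with 0 members past the threshold and 5 at an unadjusted p under 0.05 in limma, beside 1.22% and 11.9% of all genes. Age, collection and the array itself cannot be told apart for these samples.

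**Figure D4:**
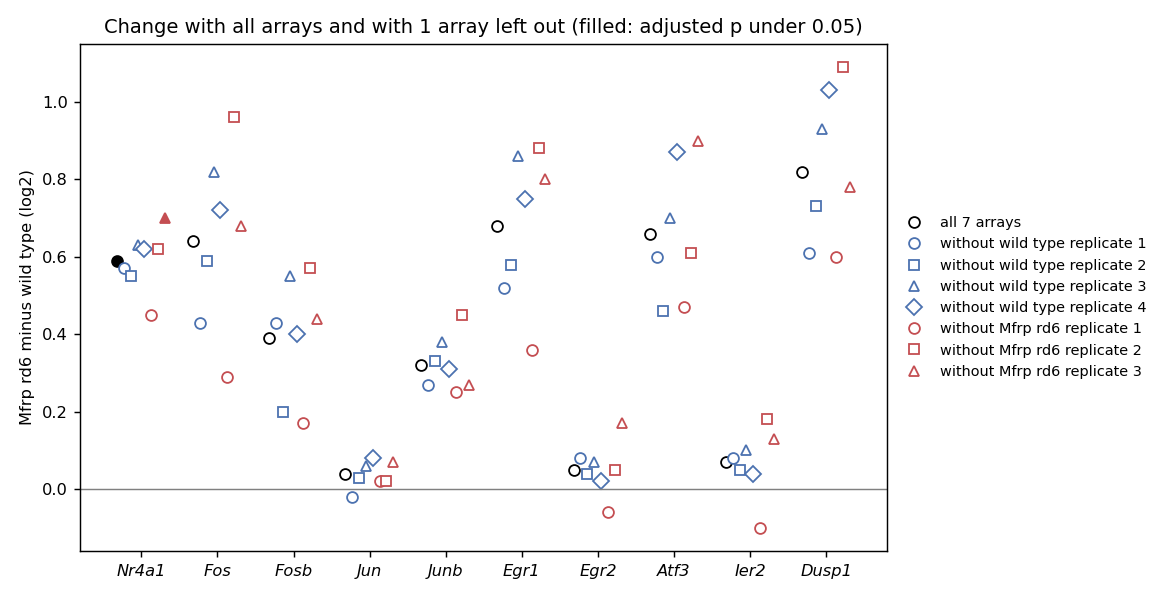
Difference between Mfrp rd6 and wild type (log2) of each member with all 7 arrays (black) and with 1 wild-type (blue) or 1 Mfrp rd6 (red) array left out, filled where the limma adjusted p was under 0.05. Only Nr4a1 has filled points, with all arrays and without Mfrp rd6 replicate 3, and leaving out Mfrp rd6 replicate 1 gives the lowest value for Nr4a1, Fos, Fosb, Junb, Egr1, Egr2, Ier2 and Dusp1.

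Markers of other cell types also differed between arrays, but their order on the mutant arrays was not that of the members. For the counts that follow, 1.34% of all genes rose and 0.813% fell. RPE markers were bright on average, with a mean over 16 genes of 11.20 to 11.33 in wild type and 11.17 to 11.25 in Mfrp rd6. Best1 among them was dim, at 5.73 to 6.02 over the arrays, and 1 of the 16 (Lrat) fell. Of 19 markers of microglia and macrophages 15 rose, and their mean was 7.11 to 7.21 in wild type and 8.80, 9.26 and 8.68 in Mfrp rd6 replicates 1 to 3. Their highest array, replicate 2, was the lowest of the 3 mutant arrays for 6 of the 10 immediate early genes. Of 16 skeletal muscle markers 4 rose, and all 16 were higher in Mfrp rd6 at an unadjusted p under 0.05 in limma, beside 5.98% of all genes. Skeletal muscle markers had means of 6.91, 7.09, 8.14 and 7.17 in wild type and 8.83, 9.11 and 8.17 in Mfrp rd6, highest on replicate 2. Choroidal endothelial markers (2 of 12 rose) had means of 6.94, 7.08, 7.41 and 7.42 in wild type and 7.47, 7.60 and 7.85 in Mfrp rd6. Wild-type replicates 3 and 4 were the higher ones, as for the 6 members named above. Mfrp rd6 replicate 1, the highest mutant array for the members, was the lowest mutant array for these markers. Rod markers (0 of 13 changed) had means of 7.15, 7.24, 8.05 and 6.74 in wild type and 6.53, 6.84 and 6.92 in Mfrp rd6, lowest on replicate 1. Wild-type replicate 3, the highest wild-type array for 6 members, was thus also the highest wild-type array for rod and muscle markers. Wild-type replicate 4 was the lowest wild-type array for rod markers. Surface epithelium markers (0 of 12 changed) were bright on average, at 11.68 to 11.78 in wild type and 11.54 to 11.63 in Mfrp rd6. Fibroblast markers had means of 7.20 to 7.37 and 6.96 to 7.18, and 1 of 10 (Dcn) fell, while Schwann cell markers (0 of 6 changed) had means of 8.39 to 8.52 and 8.38 to 8.50. The list means of the groups did not overlap for microglia and macrophages, skeletal muscle and endothelium (higher in Mfrp rd6) or for surface epithelium and fibroblasts (lower). The part of these cells in the values of the immediate early genes was not tested. The probe set of the mutated gene is annotated to Mfrp and C1qtnf5 together, read 11.22 to 11.49 in wild type and 11.09 to 11.23 in Mfrp rd6, and does not check the genotype.

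Outside the 10 members, 40 other immediate early genes were measured, and 1 rose and 0 fell, beside 1.34% and 0.813% of all genes. Rgs2, a regulator of G-protein signalling that cAMP and calcium signals induce, read 5.60, 5.73, 5.52 and 6.20 in wild type and 6.66, 6.98 and 6.45 in Mfrp rd6. All mutant arrays were above all wild-type arrays, and the rise was 0.93 (SE 0.17, 95% confidence interval 0.55 to 1.32; limma, adjusted p = 0.0249). When single arrays were dropped, the limma test of Rgs2 passed in 2 of 7 cases (wild-type replicate 4 or Mfrp rd6 replicate 3). Its change was 0.79 to 1.08 and its highest adjusted p 0.0891. It did not pass over all probe sets (adjusted p = 0.104) or with array weights (adjusted p = 0.0516), and it passed with the replicate number as a block (1.08, adjusted p = 0.00159). The wild-type values of Rgs2 lay under the array medians of 6.52 to 6.58. The 40 genes had a median change of 0.05 and a range of -0.27 to 0.93, and 30 of them were above 0, beside 43.5% of all genes. At an unadjusted p under 0.05 limma gave 8 of the 40, beside 15.4% of all genes. Above the 95th percentile of spread within groups were 6 of the 40, beside 5.0% of all genes. Among these was Zfp36, a protein that speeds the decay of AU-rich transcripts, which read 9.29, 9.57, 9.54 and 9.69 in wild type and 10.05, 9.34 and 9.81 in Mfrp rd6. The order of the mutant arrays varied among these 6 genes, the highest being replicate 1 for Zfp36 and Ccn2, replicate 2 for Klf10, Myc and Rgs2, and replicate 3 for Ier3. For 8 of the 40 the groups did not overlap, 7 higher (Rgs2, Klf2, Per1, Trib1, Ppp1r15a, Jund and Socs3) and 1 lower (Homer1). Of all genes 15.3% did not overlap in either direction, and 5.52% were higher in Mfrp rd6 without overlap. These 6 genes and those in the brackets were named after their values were seen.

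Inhibitors of the MAP kinase pathway other than Dusp1 gave 1 fall and 0 rises among 12 genes, beside 0.813% and 1.34% of all genes. Their median change was -0.07. Spry4, a sprouty protein that dampens receptor tyrosine kinase signals and is itself induced by them, read 8.75, 8.89, 9.19 and 8.97 in wild type and 8.41, 8.53 and 8.35 in Mfrp rd6. It was lower on every mutant array and fell by 0.52 on the log2 scale (SE 0.10; limma, adjusted p = 0.0369), and with single arrays dropped it passed in 1 case of 7 (wild-type replicate 1), at -0.59 to -0.44 and an adjusted p of up to 0.118. Spry4 also did not pass over all probe sets (adjusted p = 0.12) or with the replicate number as a block (adjusted p = 0.126). Of the 12 genes 4 had differences above 0. The other phosphatases did not pass and ranged from -0.22 for Dusp6, which ERK induces, to 0.29 for Dusp8.

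The kinases and factors that drive immediate early transcription differed little. Of 23 genes 0 changed, beside 2.15% of all genes, with a median change of -0.03. At an unadjusted p under 0.05 in limma there were 2 of the 23, beside 15.4% of all genes. The largest differences were those of the ribosomal S6 kinase Rps6ka3 at -0.35 (adjusted p = 0.0908, but 0.0274 with trend and robust moderation and 0.0436 among genes above the median level) and of the serum response factor partner Elk1 at 0.24 (adjusted p = 0.146), and Srf itself differed by 0.10 and Creb1 by -0.09. Of 14 partners and corepressors of the AP-1, NR4A and EGR proteins, Rxrg alone rose and 0 fell, beside 1.34% and 0.813% of all genes. The median change of the 14 was -0.03. Heat shock genes, which respond to tissue handling too, gave 0 changes among 14, beside 2.15% of all genes, with a median of -0.11. At an unadjusted p under 0.05 limma gave 5 of them, beside 15.4% of all genes. Of these, Dnaja1, Hsph1 (-0.26), Hspa5 (-0.24) and Dnajb1 (-0.21) were lower in Mfrp rd6, and Hmox1 was higher. The largest differences in that list were those of the haem oxygenase Hmox1 at 0.48 (adjusted p = 0.0959, but 0.0421 with trend and robust moderation and 0.039 with array weights) and the co-chaperone Dnaja1 at -0.27 (adjusted p = 0.139). None of these 14 was above the 95th percentile of spread within groups. The mean of the list was 10.14 to 10.27 in wild type and 10.05 to 10.21 in Mfrp rd6, and the part of handling in the values of the members was not tested.

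**Figure D5:**
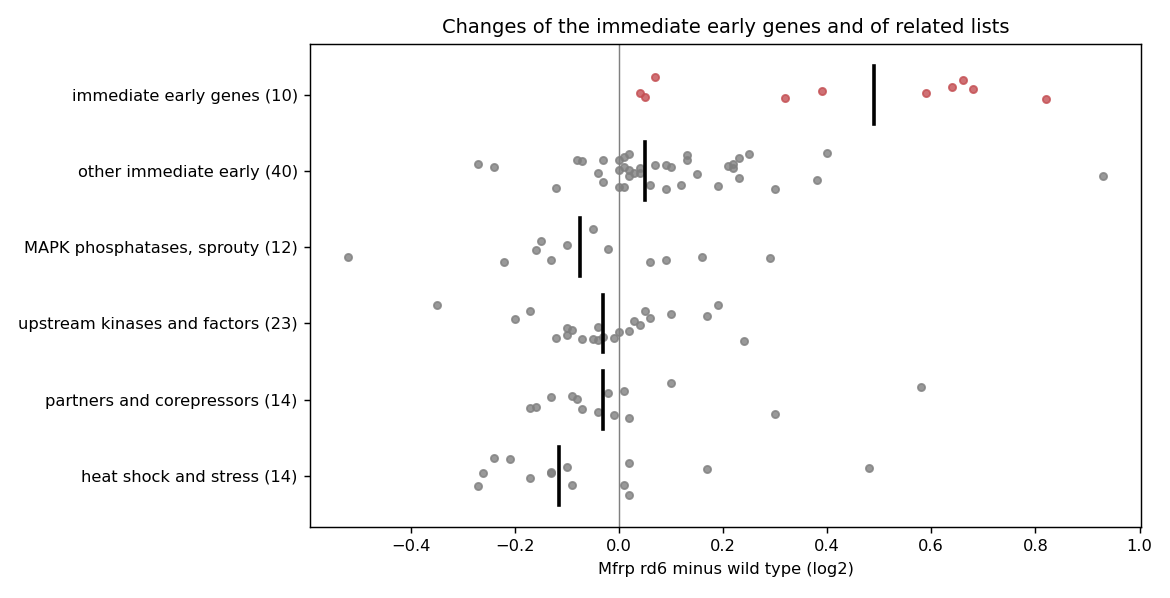
Change (Mfrp rd6 minus wild type, log2) of each measured gene of the 10 immediate early genes (red) and of 5 related lists (grey), with a bar at each median and the number of genes in brackets. The median is 0.49 for the 10 members (0.27 without Mfrp rd6 replicate 1), 0.05 for the 40 other immediate early genes, and between -0.11 and -0.03 for the remaining lists.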

How the data were processed

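The authors deposited a single table of log2 values. It was made with RMA in Affymetrix Expression Console, per the submitters' processing notes, a method which corrects background, equalises the arrays and summarises probes, and which compresses changes of dim probe sets. Versions were not given in the sources used here. Of 35556 probe sets, 21789 had 1 symbol in the platform annotation, and the one with the highest mean was kept for each of 19938 genes.

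The difference, Mfrp rd6 minus wild type, was fitted over 7 arrays in limma 3.58.1 under R 4.3.3 with no covariate (5 residual degrees of freedom, prior 4.56), with Benjamini-Hochberg adjustment over all genes and a threshold of 0.05. The script was tested on simulated data. The members and lists were chosen with earlier results of these data known, so no list was tested. Of the related lists' entries, older symbols were matched through RefSeq synonyms. Named were all members and, from each related list, up to 6 genes past the threshold or else the 2 largest changes. Genes beyond this rule were chosen after their values were seen. Alternatives were other normalizations, filters, moderation, array weights, probe set rules, marker means as covariates, the replicate number as a block and leaving out arrays. The number of arrays limits the precision, with a median standard error of 0.09. Python 3.11.15 with matplotlib 3.10.9 drew the figures.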

Additional observations from a re-analysis of the deposited data

How the results depend on the processing

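With 1 array left out, limma called 211 to 325 genes in place of 429, 0 to 1 of the 10 members and 0 to 1 of the 40 other immediate early genes, and 1 to 4 members did not overlap (18.6% to 24.0% of all genes). With Mfrp rd6 replicate 2 and wild-type replicate 3 both left out, 193 genes, 0 members (6 at an unadjusted p under 0.05, beside 10.3% of all genes) and 0 other immediate early genes (11) were called, and 6 members did not overlap (26.9% of all genes). With trend and robust moderation 718 genes were called, with array weights 679 (0 of the 40, 8 unadjusted) and over all probe sets 167, with 0 members (3 unadjusted, beside 13.7% of genes) and 0 of the 40 (8). Among genes above the median level, which leaves out Nr4a1, Egr2 and Ier2, 0 members (4, beside 2495 of 9969 genes) and 0 of the 40 (6) were called. With a marker mean as a covariate, skeletal muscle gave 49 genes, surface epithelium 3 and microglia and macrophages 0 (923 unadjusted), with 0 members (0, 0 and 1 unadjusted, beside 8.23%, 5.93% and 4.63% of genes) and 0 of the 40 (2, 3 and 8). Same-numbered arrays did not deviate together (correlations of -0.30, -0.07 and 0.04), so the numbers were not taken as pairs, and with the replicate block 226 genes and 0 members (6 unadjusted, beside 10.3% of genes) were called.

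Signs turned with the surface epithelium mean for Fos (-0.74), Egr1 (-0.71), Fosb (-0.62), Ier2 (-0.46), Egr2 (-0.36), Jun (-0.08) and Junb (-0.03), and with the skeletal muscle mean for Egr2 (-0.14), Jun (-0.12), Egr1 (-0.05), Ier2 (-0.05) and Fosb (-0.03). With the microglia and macrophage mean they turned for Atf3 (-0.59), Rgs2 (-0.53), Jun (-0.29), Egr2 (-0.19), Rxrg (-0.08), Hmox1 (-0.08) and Rps6ka3 (0.32), and with array weights for Jun (-0.01). None of these values passed. The marker means used as covariates did not overlap between the genotypes. With 7 arrays these fits separate a marker mean from genotype only poorly, so no conclusion is drawn from the turned signs. With 1 array left out Jun reached -0.02 (range to 0.08), Egr2 -0.06 (to 0.17) and Ier2 -0.10 (to 0.18). Nr4a1 stayed above 0 in all 19 alternatives that tested it (0.11 to 0.70), passing in 7, and Dusp1 stayed above 0 in all 20 (0.17 to 2.66), passing in 0. The cause of these changes was not tested.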

Other observations

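The genes whose course over the 7 arrays was most like the mean course of the 10 immediate early genes were found by the root mean square difference of the array values, each gene's mean subtracted, as a description without a test. Predicted, clone, small RNA, olfactory and vomeronasal gene names were left out. The 8 nearest of the remaining genes outside the members were Cebpd (0.12), Pcdhb9 (0.13), Jph1, Adam7 and Fam171b (0.14 each), Pfn2 (0.15), and Nsg2 and Tmem132b (0.16 each). Among the members, Nr4a1 was nearest to the mean course (0.14) and Dusp1 farthest (0.34). Cebpd, a C/EBP transcription factor induced in acute inflammation, is not on any of the lists used here. It read 6.33, 6.29, 6.48 and 6.39 in wild type and 7.14, 6.67 and 6.60 in Mfrp rd6. Since the 8 genes were chosen for this course, their differences between the genotypes are not given as tests. Pcdhb9 and Adam7 were dim.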
